A study of Mus musculus with 9 samples.

Results

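Among 58645 cells of dissociated mouse mammary tumours, 134 were T cells with a transcript of Foxp3 or Ctla4 and without one of Cd8a, and these regulatory-type T cells are described here against the other 161 T cells of the same tumours. They were chosen by a gate on unique molecular identifiers (UMIs, each counting a captured RNA molecule). A cell was kept with more than 500 and fewer than 7500 genes and under 15% of its UMIs from mitochondrial genes. A T cell then had a UMI of at least 2 of the 6 receptor genes Cd3e, Cd3d, Cd3g, Trac, Trbc1 and Trbc2, and none of H2BMc (the label of the tumour cells), Krt8 (an epithelial keratin), C1qa (macrophages) or Pecam1 (endothelium). Of the 295 T cells, 41 held Cd8a and 120 held none of Foxp3, Ctla4 and Cd8a.

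The tumours were grown in BALB/c mice from 168FARN, a mouse mammary tumour cell line injected into the mammary fat pad, as WT cells or as Kmt2c KO or Kmt2d KO cells made with CRISPR/Cas9, with 3 samples of each and no other treatment in the labels. The host was immunocompetent, and the deletions were made in the tumour cells: the T cells came from the host and carried neither. The knockout cells came from a transfected pool with several guides, and were not described as single clones. A cell's library and genotype were taken from the aggregation table of the deposited matrix, whose genotype letters were decoded from how the study named its comparisons. The labels do not tie a library to a numbered sample, so libraries are numbered within a genotype only to name them, and genotypes are given as pooled values with no test between them. Small edits in an exon need not remove the transcript, so Kmt2c and Kmt2d counts were not used to check these letters.

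Regulatory T cells are a lineage of CD4 T cells that restrain other immune cells, and the transcription factor Foxp3 defines them. Ctla4, an inhibitory receptor that competes with Cd28 for its ligands, is abundant on them but also appears on recently activated conventional T cells. In tumours these cells often carry high levels of the interleukin-2 receptor chain Il2ra and of activation receptors of the tumour necrosis factor receptor family.

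The regulatory-type cells were shallow, as T cells of these libraries were in general. Their median was 1366 UMIs (range 646 to 5771) against 1238 in the other T cells and 7112 over all kept cells. The 18 of them whose barcode sequence also occurred in another library included 12 that matched a kept cell there and 0 that matched a T cell. Foxp3 was detected in 0.704% and Ctla4 in 1.66% of 13348 tumour cells (H2BMc and Krt8 both present, median 13399 UMIs), a cell type that should lack both genes. Other T cell genes were rarer there, with Cd3e in 0.105%, Trac in 0.0899%, Cd8a in 0.0524% and Cd4 in 0.0450%. The source of these counts was not tested.

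By the gate's own genes, 60 of the 134 cells held Foxp3 and Ctla4, 22 held Foxp3 alone and 52 held Ctla4 alone. Foxp3 was therefore seen in 61.2% of the cells, with 169 UMIs, and Ctla4 had 374 UMIs. For the 52 cells without a Foxp3 UMI the name rests on Ctla4, and at a median of 1242.5 UMIs a missing Foxp3 molecule does not show a missing gene product. Of the receptor genes the gate required, Cd3e had 320 UMIs (in 87.3% of the cells), Cd3g 264 and Trac 92. Trdc and Tcrg-C1, the constant genes of the gamma-delta receptor, had 0 UMIs in them and 13 and 14 in the other T cells. Cd4, the co-receptor of helper and regulatory T cells, was detected in 38.1% of the cells and 0% of the 41 Cd8a cells (0 UMIs, which allows up to 41.3 CPM). Nrp1, a receptor often used for regulatory T cells of thymic origin, had 1 UMI in all 134 cells.

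Around the edge of the gate, 32 cells had entered on a lone UMI of Foxp3 or Ctla4 and 31 on exactly 2 receptor genes. Tnfrsf4 stood at 1409 and 1653 CPM (UMIs of a gene per 1000000 UMIs summed) in these cells, against 1731 in all 134. Just outside, 39 cells had Foxp3 or Ctla4 but a single receptor gene (Tnfrsf4 958 CPM), 21 were left out only for one of H2BMc, Krt8, C1qa and Pecam1 (1182 CPM), and 11 Cd8a cells held Ctla4 (365 CPM). None of the 41 Cd8a cells held Foxp3.

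**Figure D1:**
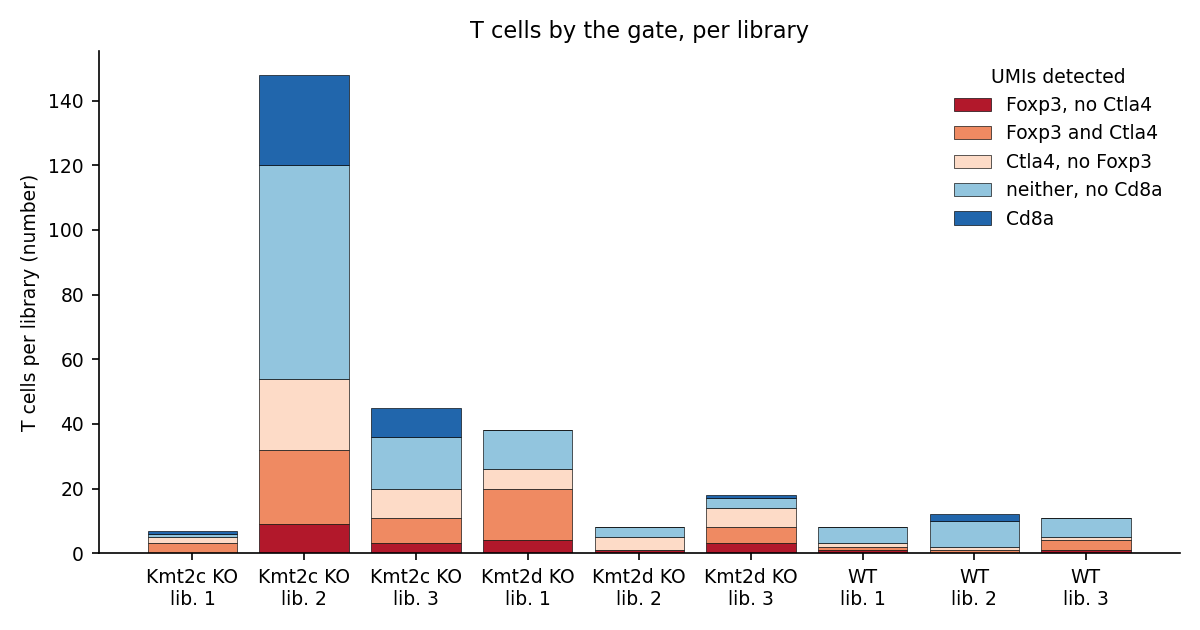
T cells per library (y axis, number of cells; x axis, the 9 libraries), stacked by the gate genes detected. Kmt2c KO library 2 held 148 of the 295 T cells and 54 of the 134 with Foxp3 or Ctla4 and no Cd8a, and the 3 WT libraries together held 10 of those.

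The regulatory-type cells were spread over all 9 libraries but unevenly. The Kmt2c KO libraries held 5, 54 and 20, the Kmt2d KO libraries 26, 5 and 14, and the WT libraries 3, 2 and 5. As a share of T cells they made up 39.5% in the pooled Kmt2c KO tumours (79 of 200, exact 95% binomial interval 32.7 to 46.6), 70.3% in Kmt2d KO (45 of 64, 57.6 to 81.1) and 32.3% in WT (10 of 31, 16.7 to 51.4). All intervals given cover counting error only. Single libraries ranged from 36.5% to 71.4% in Kmt2c KO, from 62.5% to 77.8% in Kmt2d KO and from 16.7% to 45.5% in WT, so the Kmt2c KO libraries overlapped both other genotypes and the Kmt2d KO and WT libraries did not overlap. With Foxp3 required they did: the Kmt2d KO libraries were at 52.6%, 12.5% and 44.4% and the WT libraries at 25%, 8.33% and 36.4%, with pooled shares of 45.3% and 22.6%. The Kmt2c KO library at 71.4% had 7 T cells in all, and without library 2 the Kmt2c KO share was 48.1%. Of the 41 Cd8a cells, 38 lay in Kmt2c KO (28 of them in library 2), 1 in Kmt2d KO and 2 in WT libraries. Counted over all kept cells rather than over T cells, the order differed: 0.297% in Kmt2c KO, 0.163% in Kmt2d KO and 0.222% in WT, with single libraries from 0.0423% to 0.618%.

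To ask which genes outside the gate set these cells apart, UMIs were summed per library over the regulatory-type cells and over the other T cells, and compared by edgeR's quasi-likelihood test with the library as a block. The 3 libraries with at least 10 cells of both kinds entered (Kmt2c KO libraries 2 and 3 and Kmt2d KO library 1, with 100 regulatory-type and 131 other T cells), so the test holds no WT library. Of 647 genes with enough counts, 53 differed at an adjusted p below 0.05 (8.19%), 29 higher (4.48%) and 24 lower (3.71%). A gene could have enough counts through the sums of either population alone, so some genes entered only through the population where they were high. DESeq2 called 10 higher and 15 lower, which is 40% higher against 54.7% in edgeR. Without Kmt2c KO library 2 edgeR called 0 of 492 genes (60 at an unadjusted p below 0.05). The 48 of the 53 genes that could still be tested kept their direction, but each called gene already had it in all 3 libraries. Without Kmt2d KO library 1 it called 53 higher and 79 lower among 1345 genes.

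**Figure D2:**
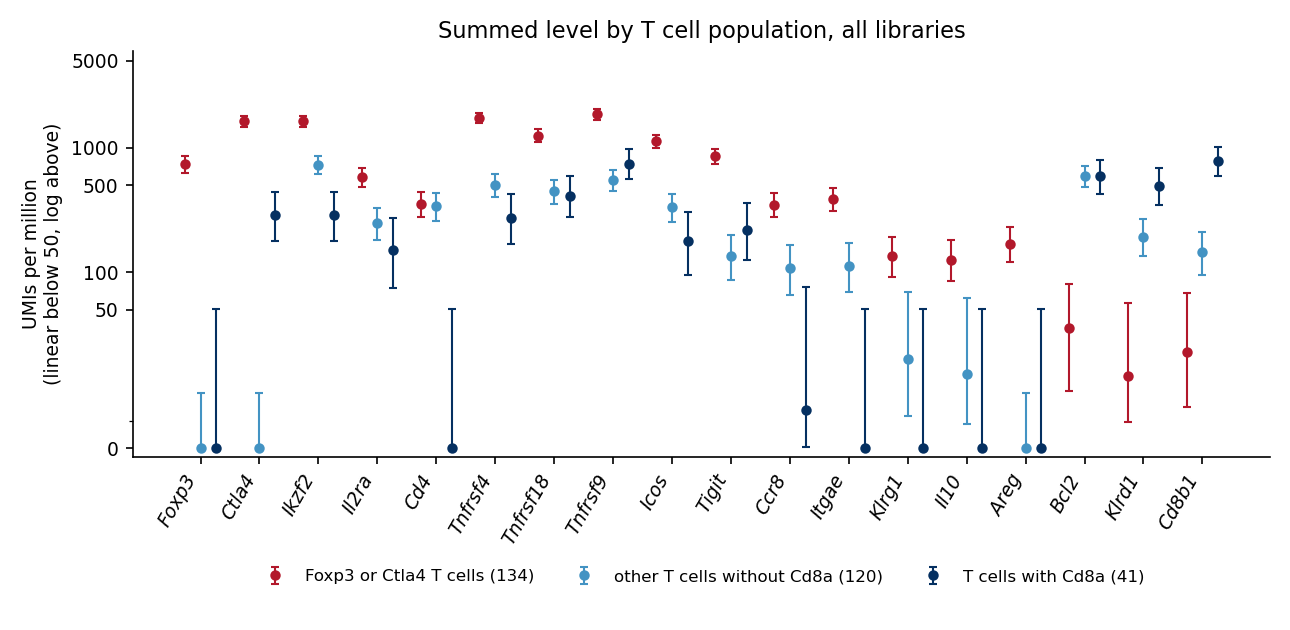
Summed level (y axis, CPM, linear below 50 and logarithmic above; bars, exact 95% Poisson intervals) of 18 genes (x axis) in the 134 regulatory-type cells, 120 other T cells without Cd8a and 41 T cells with Cd8a, over all libraries. Foxp3, Ctla4 and Cd8a content follow from the gate; Tnfrsf4 stood at 1731 CPM against 500 and 275, and Bcl2 at 43.5 against 591 and 592.

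Regulatory T cell genes had the most calls of the gene lists. A list of 30 such genes had 11 members with enough counts, of which 9 were higher, 0 were lower and 2 (Capg and Tnfrsf1b) did not pass, with a median log2 fold change of 1.55 against -0.06 over all 647 genes. Summed over the list, the level was 12922 CPM in the regulatory-type cells, 4467 in other T cells without Cd8a and 3111 in those with Cd8a. These genes were counted in cells chosen for Foxp3 or Ctla4, so they describe what came with the gate. Ccr8 and Itgae, of this list, passed the count filter through the regulatory-type sums alone.

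Tnfrsf4, Tnfrsf9 and Tnfrsf18 of the tumour necrosis factor receptor family, which carry co-stimulatory signals into activated T cells, were called and were higher in each library tested. Tnfrsf1b and Cd27, of the same family, were also higher in each but did not pass (edgeR adjusted p = 0.078 and 0.082). Tnfrsf4, which encodes OX40, was at 1672, 1240 and 2426 CPM in the regulatory-type cells of Kmt2c KO libraries 2 and 3 and Kmt2d KO library 1, and at 271, 250 and 603 in the other T cells. The groups did not overlap, and the log2 fold change was 2.16 ± 0.27 (SE, n = 3 libraries, edgeR adjusted p = 0.00116). Tnfrsf9, which encodes 4-1BB, was at 1712, 1826 and 2604 against 510, 595 and 653 (1.55 ± 0.25, edgeR adjusted p = 0.0031). Tnfrsf18, which encodes GITR, was at 1155, 1482 and 1637 against 419, 156 and 905 (1.41 ± 0.32, edgeR adjusted p = 0.0182). The Tnfrsf18 call was lost in 2 of 16 alternative settings. In the 6 libraries outside the test, with 34 regulatory-type and 30 other T cells, the pooled differences were smaller, at 0.54 for Tnfrsf4, 0.68 for Tnfrsf9 and 0.94 for Tnfrsf18 on the log2 scale.

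Tnfrsf4 and Tnfrsf18 are neighbours on chromosome 4 (mm10), and so is Sdf4, which encodes a calcium-binding protein of the Golgi and was called higher as well (1.31 ± 0.34, edgeR adjusted p = 0.0279). In the RefSeq annotation of GRCm38.p6, Sdf4 ends at 156013610 and Tnfrsf4 begins at 156013595, on the same strand, so the last 16 bases of Sdf4 are the first of Tnfrsf4. The libraries read RNA from its 5′ end, where Tnfrsf4 molecules begin. The stretch is shown because its bases belong to both genes in this annotation. Whether Tnfrsf4 molecules were counted for Sdf4 was not tested. It is chr4:156013588-156013617, plus strand, with the shared bases in capitals.
Tnfrsf4 start: ttaaaaaTAAATTTTTTTCTTAAtgcctgt

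Icos, Tigit and Lag3 were also higher. Icos, a co-stimulator related to Cd28, was at 1104, 1619 and 907 CPM against 232, 344 and 503 (log2 fold change 1.67 ± 0.31, edgeR adjusted p = 0.00622). Tigit, an inhibitory receptor, was at 942, 1034 and 750 against 129, 250 and 50.3 (2.45 ± 0.35, edgeR adjusted p = 0.00273). The other T cell levels of Tigit were 20, 8 and 1 UMIs. Lag3, an inhibitory receptor that binds class II molecules, was also called (1.36 ± 0.37, edgeR adjusted p = 0.034). Of the 20 genes of the co-stimulatory and co-inhibitory list, which shares 5 names with the regulatory list, 10 were testable, and 6 were higher, 0 lower and 4 not called (Cd2, Cd5, Cd6 and Cd27), with a median of 1.48. Pdcd1, which encodes PD-1, had too few counts, with 257 CPM in the regulatory-type cells, 413 in Cd8a cells and 172 in the rest. Cd226, a co-stimulator that shares ligands with Tigit, was detected in 1 regulatory-type cell and in 41 other T cells.

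Il2ra, the chain that gives the interleukin-2 receptor its high affinity, was at 365, 655 and 769 CPM against 116, 188 and 302 (1.38 ± 0.32, edgeR adjusted p = 0.0182). It was detected in all 9 libraries in both groups, and was higher in the regulatory-type cells in 7 of them. The call was lost with DESeq2 (adjusted p = 0.172), with no library block (edgeR adjusted p = 0.0724), with libraries of at least 5 cells (0.0574) and with 3 receptor genes required (0.0727). The shared chains did not pass: Il2rb differed by -0.20 ± 0.32 and Il2rg by 0.48 ± 0.31. Pim1, a kinase gene that cytokine signalling induces, was higher (1.27 ± 0.30, edgeR adjusted p = 0.0204). Thus 2 of the 5 testable genes of the 15 in the interleukin-2 and STAT5 list were higher and 0 lower, with a median of 0.48. Both of these calls, Il2ra and Pim1, were lost with DESeq2. Bcl2, of the same list, was too low for the filter and is not in that count. It had 10 UMIs against 153 over all libraries and was lower in the fit without the filter, as described below. Ikzf2, the Helios transcription factor, was at 1155, 1964 and 1696 against 529, 595 and 804 (1.06 ± 0.25, edgeR adjusted p = 0.0195), a call lost with DESeq2 (adjusted p = 0.0904) and with no library block (edgeR adjusted p = 0.0724). It was detected in 77.6% of the regulatory-type cells and in 37.3% of the other T cells, so it was not restricted to either. Ikzf1, its relative Ikaros, was lower (fell by 1.49 on the log2 scale, SE 0.36, edgeR adjusted p = 0.0204).

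Of 17 homing genes, 6 were testable, 2 were higher and 0 lower, with a median of 0.28. Ccr8, a chemokine receptor, was at 395, 276 and 473 CPM against 77.4, 31.3 and 50.3 (2.34 ± 0.51, edgeR adjusted p = 0.0145). Itgae, the integrin chain CD103 that binds E-cadherin on epithelium, was at 284, 517 and 473 against 58.1, 31.3 and 101 (2.33 ± 0.52, edgeR adjusted p = 0.0150), and had 0 UMIs in the 41 Cd8a cells. The other T cell levels rest on few molecules, with 12, 1 and 1 UMIs of Ccr8 and 9, 1 and 2 of Itgae. Over the 6 untested libraries the pooled log2 differences were 0.35 for Ccr8 and 1.25 for Itgae. Itgb7, the usual partner chain of Itgae, did not pass (0.42 ± 0.53), nor did Selplg, Cd44 and Cxcr6.

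**Figure D3:**
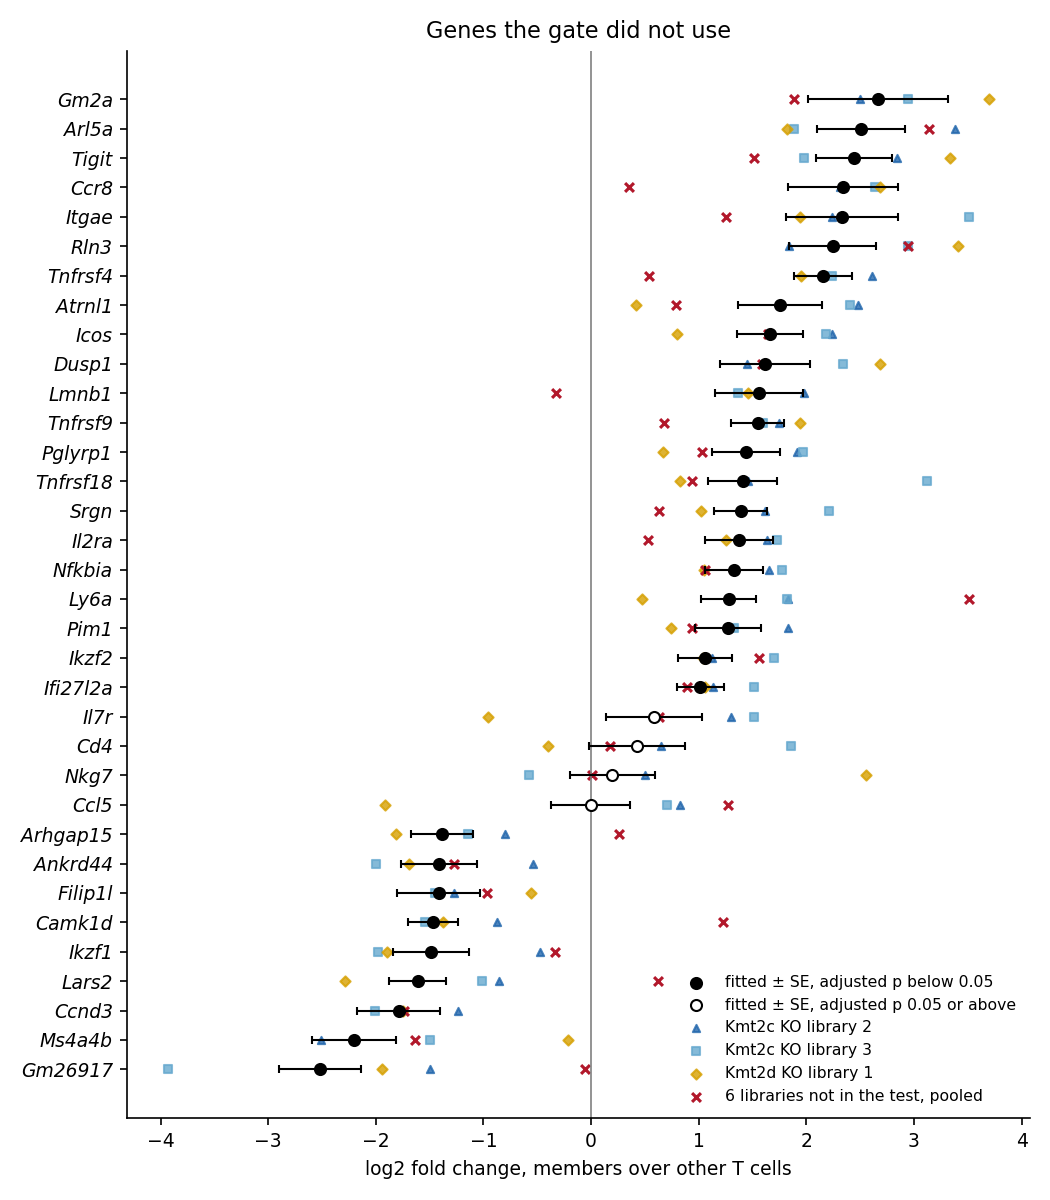
Log2 fold change of the regulatory-type cells over the other T cells (x axis) for the named genes the gate did not use (y axis). Circles with SE bars are the edgeR fit (filled, adjusted p below 0.05), small symbols the 3 libraries tested and crosses the 6 other libraries pooled. Tnfrsf4, Tigit and Arl5a lie right of 0 in the fit and in the other libraries, while Lars2 and Camk1d lie left of 0 in the fit and right of it in the other libraries.

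The 6 libraries outside the test gave a check on cells the test had not used. Of the 29 genes called higher, 27 were also higher in those pooled libraries (93.1%, median log2 difference 1.03), and the exceptions were Lmnb1 (-0.33) and Pkm (-0.07). Among all 296 tested genes with a positive fold change, 63.2% kept their sign. Of the 24 genes called lower, 11 were lower there (45.8%), which is below the 56.1% among all 351 tested genes with a negative fold change. In these pooled sums the higher genes thus kept their direction and the lower genes as a group did not. The sums were not paired by library. WT libraries gave 15668 of the 51504 regulatory-type UMIs and 36352 of the 51789 other UMIs. Library and genotype therefore differ between the pooled groups.

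Outside the gene lists, the 8 largest rises were those of Gm2a, Arl5a, Rln3, Atrnl1, Dusp1, Lmnb1, Pglyrp1 and Srgn, at log2 fold changes from 1.39 to 2.67. Gm2a, Arl5a, Rln3, Dusp1 and Lmnb1 passed the count filter through the regulatory-type sums alone, so they were testable only because they were high there. Arl5a, a small GTPase of the Golgi, was at 567, 620 and 612 CPM against 51.6, 156 and 151 (2.50 ± 0.41, edgeR adjusted p = 0.00328) and was above the other T cells in 9 of 9 libraries, in 4 of which the other T cells had 0 UMIs. Gm2a, a cofactor of ganglioside breakdown, was at 304, 345 and 316 against 51.6, 31.3 and 0 (2.67 ± 0.65, edgeR adjusted p = 0.0222). Rln3, a relaxin hormone gene, was at 375, 345 and 1322 against 103, 31.3 and 101 (2.25 ± 0.40, edgeR adjusted p = 0.00498). The other T cells of these libraries held 8, 1 and 0 UMIs of Gm2a and 16, 1 and 2 of Rln3. Rln3 lies 466 bases from Il27ra, a cytokine receptor gene of T cells, on chromosome 8. Whether Il27ra molecules were counted for Rln3 was not tested. Srgn, the proteoglycan core of secretory granules, was the most abundant of the 8, at 2300, 2515 and 2584 against 748, 532 and 1256 (1.39 ± 0.24, edgeR adjusted p = 0.00465).

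Of 21 genes of the response to receptor signalling, 6 were testable, with 1 higher, 1 lower and a median of -0.0033. Nfkbia, the inhibitor that NF-kappa B induces against itself, was the higher gene, at 1388, 999 and 1184 CPM against 439, 282 and 553 (1.33 ± 0.27, edgeR adjusted p = 0.0121), and Ikzf1 was the lower one. Of 24 interferon response genes, 8 were testable and 2 were higher, Ly6a (Sca-1; 1.28 ± 0.26, edgeR adjusted p = 0.0107) and Ifi27l2a (1.02 ± 0.22, edgeR adjusted p = 0.0144). The other 6, among them Isg15 (-0.51 ± 0.37) and Irf7 (-0.27 ± 0.42), did not pass, and the list's median was 0.19.

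No testable gene of the cytotoxic, helper, naive and proliferation lists passed the test. Of 20 cytotoxic genes 7 were testable and 0 passed, with a median of 0.20: Gzmb, the protease granzyme B, differed by 0.42 ± 0.38, and Nkg7, a granule protein, by 0.20 ± 0.39. The widest differences, Ccl4 at 1.86 ± 0.60 (edgeR adjusted p = 0.082) and the pore protein gene Prf1 at -1.39 ± 0.62 (edgeR adjusted p = 0.196), had opposite signs. Nkg7 ran in opposite directions between libraries, at 1266, 793 and 730 against 897, 1189 and 101, and Ccl5, a chemokine of effector cells, at 1408, 724 and 197 against 793, 438 and 754. Of 20 helper genes 2 were testable and 0 passed (Cd4, 0.43 ± 0.44; Rora, 0.45 ± 0.48), of 15 naive and recirculation genes 2 were testable and 0 passed (median -0.09, Il7r 0.58 ± 0.45), and of 18 proliferation genes 6 were testable and 0 passed, with a median of 0.17. Mki67, a marker of cycling cells, was detected in 19.4% of the regulatory-type and 14.9% of the other T cells.

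Many genes of interest were too low for the test's filter and are given as sums over all libraries. When edgeR was run with no filter on 12383 genes, 56 were higher (0.452%) and 35 lower (0.283%), and 18 genes of the gene lists that the filter had removed were among them, 9 in each direction. The regulatory-type cells held 39 UMIs of Areg, the growth factor amphiregulin, against 0 in the other T cells, which is at least 14.6-fold higher against a floor of 3 counts over the group. They came from 11 cells of 3 libraries. Il10, the suppressive cytokine, had 29 UMIs in 5 libraries against 5, all of those in WT library 1 (6.52-fold, interval 2.50 to 21.6). Itgb8, which helps release active TGF-beta, had 45 UMIs in 8 libraries against 2 (25.3-fold, 6.61 to 215). Izumo1r, the folate receptor FR4 of regulatory T cells, had 62 against 13 (5.37-fold, 2.92 to 10.6). Maf, a transcription factor, had 96 against 28 (3.86-fold, 2.51 to 6.11), and Klrg1, an inhibitory receptor of terminally differentiated cells, had 31 against 6 (5.81-fold, 2.39 to 17.0). The remaining 3 of the 9 higher genes are effector and activation genes. Ifng, the cytokine of type 1 responses, had 144 against 16 (10.1-fold, 6.03 to 18.2; edgeR adjusted p = 2.1e-06), 130 of them in 1 cell. Ccl3, an inflammatory chemokine, had 214 against 28 (8.598-fold, 5.78 to 13.2; edgeR adjusted p = 4.76e-07), 103 of them in 1 cell. Nr4a1, induced by receptor signalling, had 80 in 32 cells against 19 in 14 (4.74-fold, 2.85 to 8.27; edgeR adjusted p = 0.00225).

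Bcl2, which protects resting lymphocytes from apoptosis, had more UMIs in the other T cells than the 8 other list genes that were lower in that fit. It had 10 UMIs in 5 of the 134 regulatory-type cells (43.5 CPM) and 153 UMIs in 76 of the 161 other T cells, with nearly equal levels in those with and without Cd8a (592 and 591 CPM). The ratio of regulatory-type to other T cells was 0.0735 (interval 0.0346 to 0.139). In Kmt2c KO libraries 2 and 3 and Kmt2d KO libraries 1 and 3, the libraries with the most regulatory-type UMIs, the level was 60.8, 0, 78.9 and 0 CPM against 593, 657, 201 and 978, where a count of 0 allows up to 103 and 138. The other 5 libraries also had 0 UMIs in the regulatory-type cells, where a count of 0 allows more. The other T cells stood above that limit in Kmt2d KO library 2 (1649 CPM against up to 344), WT library 1 (1109 against up to 688) and WT library 3 (340 against up to 314), and under it in Kmt2c KO library 1 (263 against up to 551) and WT library 2 (626 against up to 1723). Without the filter the log2 fold change was -3.12 ± 0.53 (edgeR adjusted p = 7.66e-06). The gene was singled out after its values were seen.

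Most other list genes that were lower without the filter were, like Bcl2, named after their values were seen. Klrd1, a lectin-like receptor of cytotoxic cells, had 6 UMIs against 72, Klrc1 6 against 51, Klrk1 3 against 45, and Xcl1, a chemokine of cytotoxic cells, 0 against 34. Cd226 had 1 against 56, Itga4, an integrin chain of migrating lymphocytes, 2 against 38, and Ctsw, a protease of cytotoxic cells, 7 against 72. Klrd1 had 36 UMIs in T cells with Cd8a (496 CPM) and 36 in the other T cells without it (194 CPM). Cd8b1, the partner chain of Cd8a, had 8 against 84 and follows in part from the gate, which excluded Cd8a. Outside these calls, Ebi3, a subunit of interleukin-35, had 32 UMIs against 3, and Tcf7, a transcription factor of naive and memory cells, had 2 against 16. Ebi3 is of the regulatory list, whose low genes differed in direction. Gpr83 had 0 UMIs in both groups. Median library levels were 78.9 against 85.0 CPM for Socs2 and 0 against 32.3 for Cd83. They were 101 against 0 for Entpd1 and 115 against 19.4 for Ikzf4.

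Detection per cell depends on depth, so it was repeated after thinning each cell to 1500 UMIs, which left 57 cells of each kind and dropped 77 regulatory-type and 104 other T cells as too shallow. Tnfrsf4 was then detected in 89.5% against 24.6% (79.9% and 25.5% before thinning), Ikzf2 in 71.9% against 35.1%, Tigit in 66.7% against 28.1%, Icos in 64.9% against 26.3%, Il2ra in 52.6% against 17.5%, and Itgae in 33.3% against 3.51%. Cd4 was detected in 26.3% against 15.8%, and in 23.7% of the thinned other T cells without Cd8a. Of 9 genes (Tnfrsf4, Tnfrsf18, Tnfrsf9, Icos, Tigit, Ikzf2, Il2ra, Ccr8 and Itgae) the regulatory-type cells held a median of 6 and the other T cells of 2, and 63 of the 161 other T cells held at least 3, so detection of these genes was not limited to the gated cells.

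The genes called lower were of another kind. Mitochondrial transcripts were 9 of the 24, from 11 tested, with log2 fold changes of the 11 between -1.37 and -0.85, and mt- UMIs made up 2.50% of all UMIs in the regulatory-type cells and 3.82% in the other T cells. Gm26917, a non-coding RNA, was at 608, 379 and 612 CPM against 1729, 6008 and 2362 (-2.52 ± 0.38, edgeR adjusted p = 0.0029), Lars2, a mitochondrial tRNA synthetase, at 993, 827 and 1282 against 1800, 1690 and 6282 (-1.61 ± 0.27, edgeR adjusted p = 0.00334), and Camk1d, a kinase, at 2421, 2550 and 1874 against 4445, 7479 and 4875 (-1.47 ± 0.23, edgeR adjusted p = 0.0031). In the 6 untested libraries, pooled, Lars2 and Camk1d were higher in the regulatory-type cells (0.62 and 1.23), Gm26917 was at -0.06, and mt- UMIs were 4.48% against 4.21%. Within single untested libraries the mt- share was mostly lower in the regulatory-type cells. It was 4.06% against 8.27% in Kmt2c KO library 1 and 2.98% against 6.39% in Kmt2d KO library 2. WT libraries 1 and 2 had 3.62% against 3.85% and 1.72% against 2.92%. The share was higher in Kmt2d KO library 3 (4.96% against 2.82%) and WT library 3 (5.86% against 5.78%). With cells at 5% mt- UMIs or more left out, a setting added after the values were seen, 32 genes were called higher and 13 lower. The part of RNA quality in these calls was not tested.

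Some other lower genes had the same direction in the pooled untested libraries. Ms4a4b, a membrane protein of T cells, was at 172, 310 and 98.6 against 1006, 907 and 101 (-2.20 ± 0.39, edgeR adjusted p = 0.00465; -1.63 in the 6 libraries), and the gap was absent in Kmt2d KO library 1. Ccnd3, a cyclin of lymphocyte division, was at 152, 103 and 178 against 368, 469 and 603 (-1.79 ± 0.38, edgeR adjusted p = 0.0144; -1.74 in the 6 libraries). Ankrd44 (-1.41 ± 0.35) and Filip1l (-1.41 ± 0.39) also held their direction there, while Arhgap15 (-1.38 ± 0.29) did not. Ankrd44 lost its call in 6 of 16 alternative settings and Filip1l in 7 of the 11 that tested it. Filip1l lies inside Cmss1 on chromosome 16, which was called lower as well (-1.04 ± 0.23) but was higher in the 6 libraries (0.74), as was Il31ra (0.86), and the reads of Filip1l and Cmss1 may not be fully separable.

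The cells that entered on Ctla4 alone carried much of the same program as those with Foxp3, but only Kmt2c KO library 2 had 10 or more cells of both kinds, so these are sums without a test. The regulatory list stood at 12182 CPM (interval 11422 to 12980) in the 52 cells with Ctla4 alone and at 13305 (12730 to 13899) in the 82 with Foxp3, against 4086 in the other T cells. Tigit was at 905 and 825, Icos at 1185 and 1096, Il2ra at 573 and 581 and Tnfrsf4 at 1567 and 1816, while Ikzf2 was at 1223 (991 to 1494) and 1842 (1632 to 2072).

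**Figure D4:**
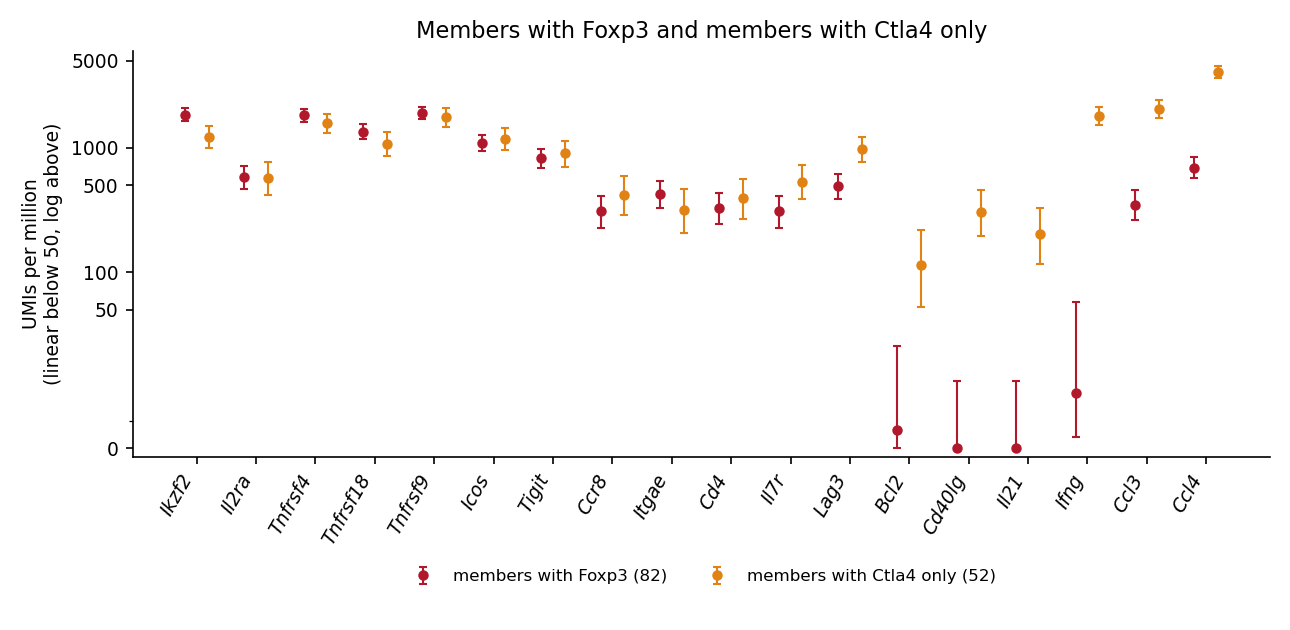
Summed level (y axis, CPM, linear below 50 and logarithmic above; bars, exact 95% Poisson intervals) of 18 genes (x axis) in the 82 cells with Foxp3 and the 52 cells with Ctla4 alone. Il2ra, Tnfrsf4, Icos and Tigit lie close together and Ikzf2 is higher with Foxp3 (1842 against 1223 CPM). Ifng, Il21 and Cd40lg lie apart: 130 of the 144 Ifng UMIs came from 1 cell.

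A few cytokine and chemokine genes, named after their values were seen, had most of their UMIs in cells with Ctla4 alone, and few cells held them. Ifng had 141 UMIs there and 3 in cells with Foxp3, but 130 lay in 1 cell of Kmt2c KO library 2. Il21, a cytokine of follicular helper cells, had 16 and 0, with 15 in 1 cell of Kmt2d KO library 2. Cd40lg, the ligand by which helper cells activate B cells, had 24 in 5 cells and 0 in cells with Foxp3, with 19 in 1 cell of the same library. Ccl3 had 161 and 53, with 103 in 1 cell, and Ccl4 316 in 11 cells and 105 in 15, with at most 81 in 1. Bcl2 had 9 UMIs in 4 cells and 1 in cells with Foxp3. The Poisson intervals of such genes understate their error, because the molecules of 1 cell are not independent.

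T cell receptor variable segments, which the gate did not use, were read in part of the cells. A Trbv segment was seen in 50 of the 134 regulatory-type cells, with 15 different segments and 4 cells with more than 1, and in 61 of the 161 other T cells, with 15 segments and 8 such cells. A Trav segment was seen in 54 regulatory-type cells, with 37 different segments. Trbv1 was the most frequent beta segment in the regulatory-type cells, in 15 of the 50 (30%) from 4 libraries, and occurred in 7 of the 61 others (11.5%), whose most frequent segments, Trbv13-2 and Trbv19, had 12 cells each. Segments without junction sequence do not identify clones.

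**Figure D5:**
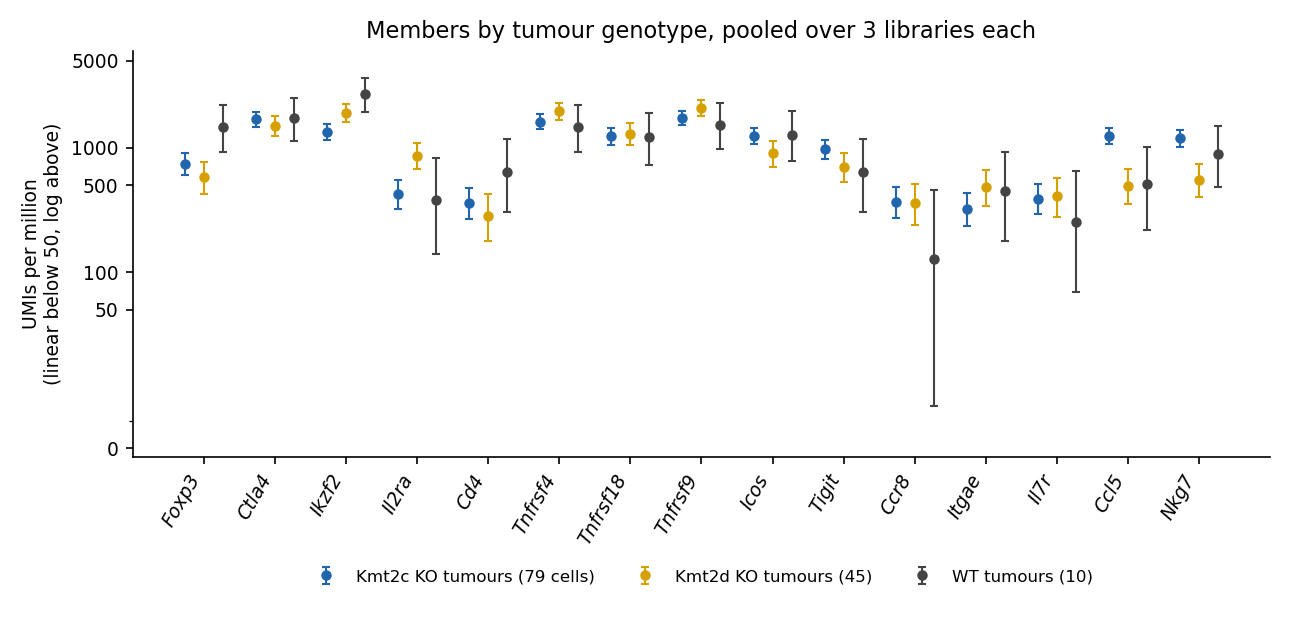
Summed level in the regulatory-type cells (y axis, CPM, linear below 50 and logarithmic above; bars, exact 95% Poisson intervals) of 15 genes (x axis) by tumour genotype, each pooled over 3 libraries. The intervals overlap for Tnfrsf4, Tnfrsf18, Tnfrsf9 and Tigit, and are widest for the 10 cells of WT tumours.

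Between tumour genotypes, the summed regulatory list was nearly level in the regulatory-type cells, at 12450 CPM in Kmt2c KO (interval 11858 to 13065), 13665 in Kmt2d KO (12872 to 14494) and 13084 in WT (11354 to 15003). Single genes varied more. Foxp3 was at 743, 580 and 1468, where 20 of the 23 WT UMIs came from WT library 3. Il2ra was at 428 in Kmt2c KO and 863 in Kmt2d KO, and its libraries ran from 365 to 655 in the first and from 769 to 1606 in the second without overlap, while the WT libraries, with 6 UMIs in all, lay between 314 and 574. Kmt2c KO library 1 and Kmt2d KO library 2 had 5 cells each. How many other genes separate these libraries in the same way was not counted. Tnfrsf4 was at 1622, 1961 and 1468, Tnfrsf9 at 1742, 2097 and 1532, and Icos at 1247, 900 and 1276. Over the 9 libraries Tnfrsf9 had a lowest level of 1107, a median of 1712 and a highest of 2604, Tnfrsf4 459, 1672 and 2872, Ikzf2 1032, 1376 and 3554, and Tigit 115, 830 and 1723.

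The interferon response list was highest in the Kmt2c KO libraries. The list summed to 17631, 17994 and 16643 CPM in the 3 Kmt2c KO libraries, to 7792, 6424 and 7890 in Kmt2d KO and to 8026, 15508 and 10663 in WT. The Kmt2c KO libraries lay above all others and the WT libraries above the Kmt2d KO libraries, the last by a narrow gap (8026 against 7890). WT library 2, the nearest to Kmt2c KO, had 2 cells. Ifi27l2a and Ly6a made up most of it: Ly6a was at 3122, 4367 and 4583 in Kmt2c KO and at most 1420 elsewhere. Over the other 22 list genes the pooled levels were 5302 in Kmt2c KO (interval 4918 to 5707), 2713 in Kmt2d KO (2366 to 3096) and 4212 in WT (3258 to 5359). Over these 22 genes the Kmt2c KO libraries, at 4591, 5542 and 4617, lay below WT library 2, at 6318 with 11 UMIs, and above the other WT libraries, at 4357 and 3763, and the Kmt2d KO libraries, at 2347, 2983 and 3460. The tumour cells moved in part alongside, with Ly6a at 1087, 235 and 48.5 and the 22 genes at 5901, 2442 and 1297 CPM, and the part of free tumour RNA in the T cell values was not tested. In the other T cells the list was at 9021, 7676 and 3439. No test was made between genotypes.

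Cytotoxic genes in the regulatory-type cells summed to 8974 CPM in Kmt2c KO, 2084 in Kmt2d KO and 2744 in WT. The Kmt2c KO libraries were at 19651, 9554 and 4996, the Kmt2d KO libraries at 2288, 1377 and 1892 and the WT libraries at 2293, 6893 and 2195. The highest of these was a library with 5 cells, and 103 of the UMIs summed in Kmt2c KO library 2 were Ccl3 of 1 cell. Ccl4 and Ccl3 gave 10468 and 4775 CPM of the 19651 in Kmt2c KO library 1. In Kmt2c KO library 2, Ccl4 gave 3343 of the 9554. Proliferation genes summed to 5001, 5143 and 1851, with libraries from 734 to 7686.

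Markers of other cell types were low in the regulatory-type cells. Of 12 macrophage markers 8 had a UMI, with 27 UMIs in all, and Csf1r and Adgre1 were at 0. Of 13 dendritic cell markers 5 had one, with Flt3, Xcr1 and Clec9a at 0, and 104 of the 175 UMIs were Cst3. Of 9 B and plasma cell markers 3 had one, with 29 UMIs against 8 in the other T cells, 21 of them Ighm, and Ms4a1 was at 0. Tumour markers summed to 83 UMIs against 237, of which Spp1 gave 72 and 222, with Krt18, Krt7 and Krt19 at 0. Natural killer markers summed to 12 UMIs against 104, and Ncr1 was at 0 in both. Endothelial markers had 1 UMI, fibroblast markers 7 and neutrophil and mast cell markers 13. Without cells holding Lyz2, Cd79a, Col1a1, Krt18 or Cdh5, 29 genes were called higher and 22 lower.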

How the data were processed

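From 9 tumour samples, suspensions of whole tumours, cleared of dead cells and debris on Percoll layers, were sequenced as 5′ single-cell libraries. According to the labels and study methods the authors ran Cell Ranger 7.0.1 on mm10, and deposited 1 matrix of 9 libraries holding whole-number UMI counts per gene and barcode. Which annotation was used, and whether aggregation equalised depth, was not given in the sources used here. The library was read from the barcode suffix. Counts were summed per library and population and tested with edgeR 4.0.16 (quasi-likelihood, filterByExpr, TMM, library as block, Benjamini-Hochberg adjustment over all genes tested). DESeq2 1.42.0 and the other settings are alternatives. In the comparison simulated on these sums, 26 of 42 tested genes with a log2 change of 1 and 42 of 42 with 2 were called, with 6 of 633 unchanged genes. The simulation had a fixed dispersion and library effects shared by both populations. It held no change that varied between libraries and no burst of a single cell, so its rates need not hold for these data. Binomial and Poisson intervals are exact, 95%. The 13 gate genes were described and not tested. Summed UMIs per tested library were 29022 to 98701 in regulatory-type and 19898 to 155014 in other T cells. The p-values rest on the spread between 3 libraries together with variance information shared over all tested genes, not on each gene's own spread alone. The SE values come from the same fit. No doublet caller was run. Members and gene lists were chosen with earlier results of these data known. Besides the listed genes, those named were up to 4 called genes per list and the 8 largest rises and falls among called unlisted genes with 1 direction in every tested library; Lag3, Sdf4, Pkm, Cmss1 and the genes too low for the test were named after their values were seen.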

Additional observations from a re-analysis of the deposited data

How the results depend on the processing

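Of the comparison of regulatory-type with other T cells, 53 genes were called, and all 53 kept their direction under RLE normalization, DESeq2, no library block and no low-count filter. These settings refit the same counts, and each called gene had 1 direction in all 3 tested libraries, so a reversal was hardly possible. The count was 80 with RLE normalization, 25 with DESeq2, 91 without the low-count filter, 15 with no library block, 132 when each population needed at least 20 cells, and 94 when a T cell needed 3 of 6 receptor genes. The last 2 fits kept 2 libraries, and the fit with at least 20 cells is the same as that without Kmt2d KO library 1. Without each library in turn the count ran from 0 (without Kmt2c KO library 2, which had the most T cells) to 132 (without Kmt2d KO library 1). Cd4 changed sign to -0.040 against other T cells without Cd8a. Ccl5, at -0.0030, changed sign in these settings: 0.22 without the filter, 0.047 with no library block, 0.11 against other T cells without Cd8a, 0.54 with at least 20 cells, 0.12 with 3 receptor genes, 0.14 without the deepest 5% of cells, 0.059 with cells under 5% mt- UMIs, 0.071 without cells holding other markers, and 0.54 without Kmt2d KO library 1. Nkg7 was at -0.0082 with no library block, -0.18 with at least 20 cells, -0.19 with 3 receptor genes, -0.00093 without the deepest cells and -0.18 without Kmt2d KO library 1. Leaving out 1 library, Ccl5 ran from -0.67 to 0.54 and Nkg7 from -0.18 to 0.76. Of the named genes that were called, 26 lost the call without Kmt2c KO library 2 and 15 with no library block. With 3 receptor genes 9 lost it and with DESeq2 7, among them Il2ra in all 4 settings. These counts leave out genes that a setting did not test or that DESeq2 gave no adjusted p. DESeq2 called 10 genes higher in all, fewer than the named genes called higher by edgeR, so its count of 7 is too low. Among genes with an adjusted p, DESeq2 ended the calls of Ikzf2, Il2ra, Pim1, Nfkbia, Atrnl1, Pglyrp1 and Ankrd44. The cause was not tested. None of Cd4, Ccl5 and Nkg7 was called in any setting, with adjusted p from 0.169 to 0.998.

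The share of regulatory-type cells among T cells, 45.4% over all libraries, was 27.8% with Foxp3 required and 38.0% with Ctla4 required. With Foxp3 required it was 23.0% in Kmt2c KO, 45.3% in Kmt2d KO and 22.6% in WT tumours. Leaving out 1 library gave 42.0% to 54.4% over all, 38.1% to 48.1% in Kmt2c KO, 67.4% to 73.1% in Kmt2d KO and 25% to 42.1% in WT. A comparison with Cd8a cells alone and one on cells thinned to 1500 UMIs each had 1 library and were not run. No paired analysis was possible because the libraries carry no replicate number of the labels, as far as pairing across genotypes goes. The 2 populations of a library were paired by the library block. Depth limited what could be seen: 1 UMI in the regulatory-type cells was 4.35 CPM, and a count of 0 allowed up to 3 times that.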
